A study of Mus musculus with 20 samples.

Results

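The 10 genes described here carry the insulin signal from the cell surface to the nucleus of the hepatocyte: *Insr*, *Irs1*, *Irs2*, *Pik3ca*, *Pik3r1*, *Akt1*, *Akt2*, *Foxo1*, *Grb14* and *Trib3*. They were found by symbol in the table of 54532 Ensembl genes, where each matched 1 gene, and all 10 of 10 passed the filter on low counts. The livers came from male C57BL/6J mice with diet-induced obesity, which ate a high-fat diet (HFD) during 12 weeks before Roux-en-Y gastric bypass (RYGB) or a sham operation and were given chow or HFD over the 8 weeks that followed. The sham-operated groups are called Sham Chow and Sham HFD and the bypass groups RYGB Chow and RYGB HFD, and each held 5 mice, 20 in all, with 1 liver per mouse, and the study describes the livers as taken in the fasted state. All mice had carried the earlier obesity, so Sham Chow is a group returned from HFD to chow and not a never-obese control. The study reports that Sham HFD mice were heavier than the mice of every other group. In comparisons that include Sham HFD, and in the interaction, body weight therefore cannot be told apart from surgery or diet.

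Insulin binds the receptor encoded by *Insr*, which phosphorylates the adaptors IRS1 and IRS2. These recruit phosphoinositide 3-kinase, made of a catalytic subunit (*Pik3ca*) and a regulatory subunit (*Pik3r1*), and its lipid product activates the kinases AKT1 and AKT2. AKT2 is the main AKT isoform of insulin action in liver, and AKT excludes the transcription factor FOXO1 from the nucleus, which lowers glucose production. GRB14 binds the active receptor and inhibits it, and TRIB3, a pseudokinase induced by the stress factor ATF4, has been described as an inhibitor of AKT. Most control in this pathway is by phosphorylation, which RNA does not measure. *Irs2* is itself repressed by insulin, through the loss of FOXO1 from its promoter.

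Between 14604854 and 22537498 reads were counted per mouse (median 19056997), and the 10 genes had between 126 reads (*Irs1*) and 3898 reads (*Insr*) in single mice. Levels are given as CPM, each mouse's counts divided by its library size after edgeR's TMM scaling, and, where genes are compared with each other, as CPM per kilobase of merged exons. A gene was called when its adjusted p was under 0.05 in edgeR's quasi-likelihood test of all 20 mice, with Benjamini-Hochberg adjustment over 12289 tested genes, and unadjusted values are named as such. Surgery on chow means RYGB Chow over Sham Chow, and surgery on HFD means RYGB HFD over Sham HFD. HFD in sham mice means Sham HFD over Sham Chow, and HFD after RYGB means RYGB HFD over RYGB Chow. Every log2 fold change below has this direction. Bulk RNA does not tell fewer cells of a type apart from less RNA per cell. All 5 hepatocyte markers were detected, and their summed level lay between 91115 and 109890 CPM in RYGB HFD against 64715 to 77587 in Sham HFD. The sum was 73436 to 93762 CPM in Sham Chow and 68381 to 114963 in RYGB Chow. Of 5 pancreas markers, 1 passed the filter on low counts and *Ins2* was at 0. Their summed level was 12.1 to 29.2 CPM in Sham Chow and 12.9 to 27.5 in RYGB Chow. It was 10.6 to 21.4 CPM in Sham HFD and 15.6 to 26.1 in RYGB HFD.

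The promoters of the genes called in these livers, *Irs2*, *Grb14* and *Foxo1*, are shown because their RNA levels moved in the same direction, and that of *Irs1* is shown as the paralog of *Irs2* that was not called. RefSeq windows on GRCm38.p6, 250 bases before to 50 bases after the annotated start, were found for 9 of the 10 genes, 14 windows in all. They are written 5′ to 3′ on the strand of the gene. Capitals mark matches to 5 short motifs searched on both strands: GTAAACA (a FOXO core), CAAAACA (the core of insulin response elements), TGATGCAA (an ATF4 composite site), TCACNCCAC (an SREBP site) and CACGTG (an E-box).
Irs2, chr8:11008880-11009179, minus strand: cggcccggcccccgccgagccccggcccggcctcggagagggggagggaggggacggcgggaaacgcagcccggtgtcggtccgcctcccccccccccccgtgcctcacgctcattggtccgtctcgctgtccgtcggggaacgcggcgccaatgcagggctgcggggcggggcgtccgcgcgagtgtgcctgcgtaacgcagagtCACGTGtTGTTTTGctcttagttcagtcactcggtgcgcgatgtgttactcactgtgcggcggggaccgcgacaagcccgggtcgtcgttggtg
Irs1, chr1:82291390-82291689, minus strand: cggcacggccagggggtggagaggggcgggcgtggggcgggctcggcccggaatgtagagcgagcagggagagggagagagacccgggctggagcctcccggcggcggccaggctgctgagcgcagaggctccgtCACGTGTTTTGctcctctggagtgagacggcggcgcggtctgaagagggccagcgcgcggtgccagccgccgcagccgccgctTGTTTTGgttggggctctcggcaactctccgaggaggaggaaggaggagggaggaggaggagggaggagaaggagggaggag
Foxo1, chr3:52268087-52268386, plus strand: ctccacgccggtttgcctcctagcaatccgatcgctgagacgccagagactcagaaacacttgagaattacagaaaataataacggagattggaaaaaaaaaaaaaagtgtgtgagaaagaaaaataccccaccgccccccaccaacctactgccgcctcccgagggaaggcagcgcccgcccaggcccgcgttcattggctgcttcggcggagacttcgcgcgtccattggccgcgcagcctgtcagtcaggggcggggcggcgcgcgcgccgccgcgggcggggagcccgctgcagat
Grb14, chr2:65022717-65023016, minus strand: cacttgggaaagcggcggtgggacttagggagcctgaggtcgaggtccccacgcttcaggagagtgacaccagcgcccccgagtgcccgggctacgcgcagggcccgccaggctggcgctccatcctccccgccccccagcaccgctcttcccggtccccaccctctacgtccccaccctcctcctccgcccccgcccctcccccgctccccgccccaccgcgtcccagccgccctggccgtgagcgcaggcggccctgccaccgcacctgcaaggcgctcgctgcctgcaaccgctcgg

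The *Irs2* window held CACGTG from 44 to 39 bases before the start and, after 1 further base, CAAAACA on the opposite strand (read as TGTTTTG) from 37 to 31 bases before it. The *Irs1* window held CACGTG from 115 to 110 bases before the start, sharing bases with TGTTTTG from 111 to 105, and a second TGTTTTG from 32 to 26. Neither the *Foxo1* nor the *Grb14* window held any of the 5 motifs. Among 32851 windows of the same length, 6.28% held CAAAACA, 7.15% CACGTG, 3.65% GTAAACA, 1.24% TCACNCCAC and 0.895% TGATGCAA. Of the other windows, 1 of *Akt1* held GTAAACA and that of *Trib3* held none. The RefSeq start of *Grb14* lay 2221 bases inside the GENCODE gene, and that of *Irs2* 471 bases upstream of it, so these windows belong to the RefSeq starts only.

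Per kilobase, the AKT kinases and the receptor stood highest and *Irs1* lowest. *Akt2* averaged 16.7 ± 0.735 CPM per kilobase (mean ± SD, n = 20 mice) and *Akt1* 16.4 ± 1.72, and *Akt2* was above *Akt1* in only 12 of 20 mice, so their order was not separated from the spread. *Insr* followed at 12.9 ± 1.09, below *Akt1* in 20 of 20 mice. Its inhibitor *Grb14* lay at 9.30 ± 1.44, below the receptor in every mouse, and *Pik3r1* at 8.50 ± 1.24. *Trib3* lay at 7.83 ± 2.05. *Pik3ca* (4.91 ± 0.512), *Irs2* (4.82 ± 1.36) and *Foxo1* (4.48 ± 0.817) formed a lower tier in which each gene exceeded the next in 13 of 20 mice. *Irs1* came last at 1.47 ± 0.362, below *Foxo1* in 20 of 20 mice. Of the exon bases of *Irs1*, 30.9% (2822 bases) are shared with *Gm9747* on the opposite strand, which had 0 counts. The strand setting of the counting is not given in the sources used here, and whether reads in those bases were left uncounted was not tested.

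**Figure D1:**
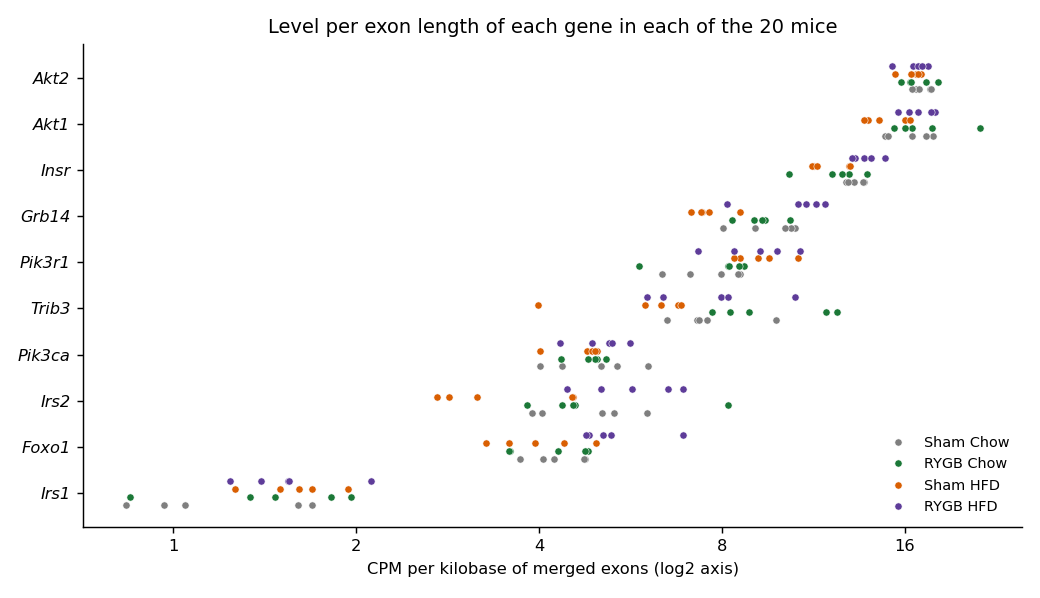
CPM per kilobase of merged exons (x axis, log2 scale) of each gene in each of the 20 mice, 1 point per mouse, coloured by group. *Akt2*, *Akt1* and *Insr* are the highest, *Irs1* is the lowest, and for *Irs2* the lowest 3 points belong to Sham HFD mice.

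Among the 4 comparisons, surgery on HFD gave the most calls. For surgery on HFD, 3 of the 10 genes were called and all 3 were higher in RYGB HFD: the adaptor *Irs2*, the transcription factor *Foxo1* and the receptor inhibitor *Grb14*. Of all tested genes, 16.4% were called in this comparison, 8.54% higher and 7.90% lower, the background against which 3 of 10 is read. The median log2 fold change of the 10 genes was 0.19, against 0.01 over all tested genes, and 8 of the 10 values were above 0. At an unadjusted p under 0.05 in edgeR's test, where 3772 of 12289 tested genes passed, 6 of 10 passed. *Insr* (0.20), *Akt1* (0.18) and *Trib3* (0.38) were among these without passing the adjustment, with adjusted p of 0.0661, 0.161 and 0.139.

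The same operation on chow gave 0 calls among the 10 genes, and 0 of 10 had an unadjusted p under 0.05 in edgeR's test. DESeq2 and limma-voom also called 0. Few genes of any kind were called there (0.0570%), and 1325 of 12289 tested genes had an unadjusted p under 0.05 in edgeR's test. The median of the 10 log2 fold changes was 0.01, and the largest was that of *Trib3* at 0.35 (95% interval -0.0036 to 0.71, unadjusted p = 0.0524 in edgeR's test). The interval of *Akt2* was the narrowest, from -0.14 to 0.10, and that of *Irs1* the widest, from -0.18 to 0.72. HFD in sham mice, which compares the diets without bypass, gave 1 call of 10, *Grb14*, lower in Sham HFD, where 21.6% of all genes were called. For HFD after RYGB, 0 of 10 were called against 3.65% of all genes, with an unadjusted p under 0.05 for *Foxo1* (0.35) and *Insr* (0.16) in edgeR's test. DESeq2 also called 0 there. In edgeR's test, 2308 of 12289 tested genes had an unadjusted p under 0.05 in that comparison.

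Whether surgery acted differently on the 2 diets was tested as the surgery by diet interaction, (RYGB HFD - RYGB Chow) - (Sham HFD - Sham Chow). *Grb14* was the 1 gene of 10 called, at 0.53 (SE 0.13, adjusted p = 0.0263 in edgeR's test), where 5.06% of all genes were called. The interaction of *Irs2* was 0.62 (SE 0.28, adjusted p = 0.207), that of *Foxo1* 0.45 (SE 0.18, adjusted p = 0.144) and that of *Insr* 0.30 (SE 0.10, adjusted p = 0.0981). For these 3 genes the surgery effect on HFD was therefore not shown to differ from that on chow. Without RYGB Chow replicate 3, *Irs2* was called too (0.84, adjusted p = 0.0436 in edgeR's test). *Grb14* lost its call without any 1 of Sham Chow replicates 3, 4 or 5, Sham HFD replicate 3 or RYGB HFD replicate 2, with adjusted p between 0.0506 and 0.0585.

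**Figure D2:**
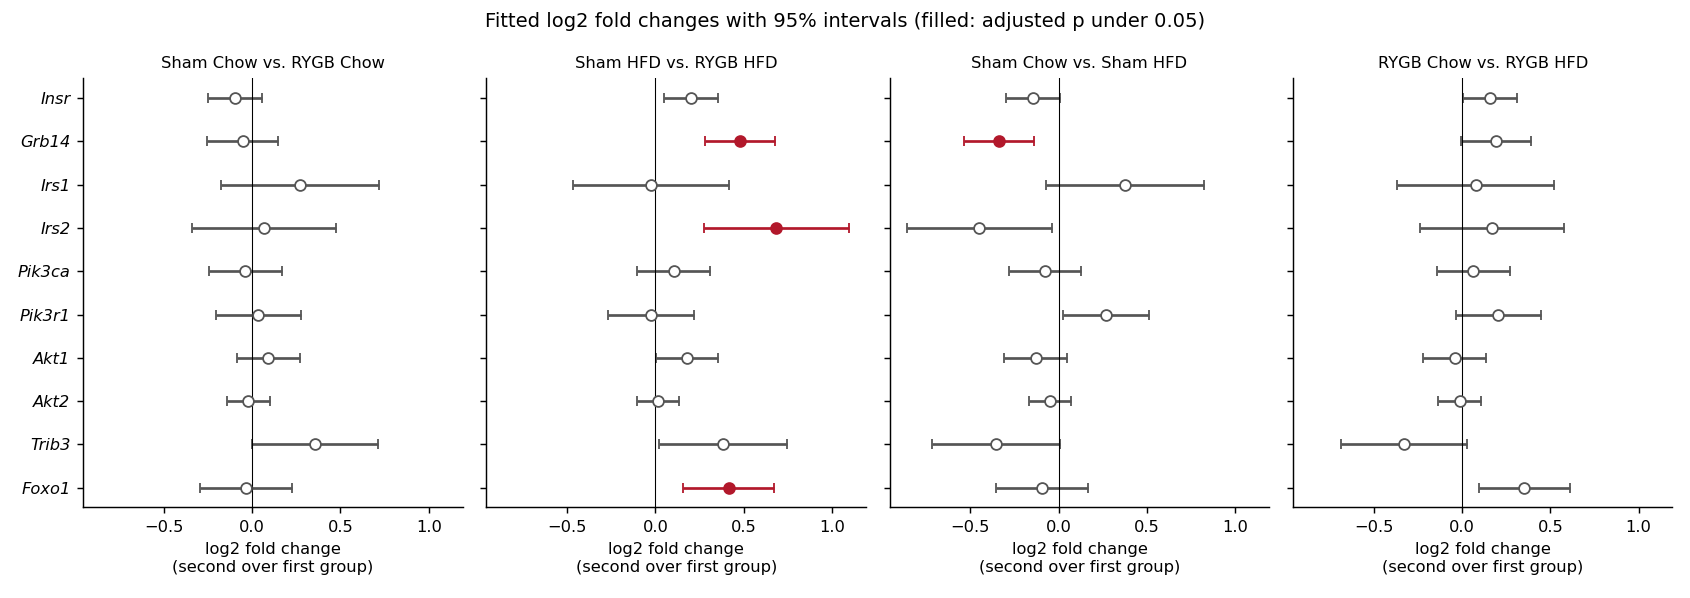
Fitted log2 fold change (x axis, second group named over first) of each of the 10 genes in the 4 comparisons, with 95% intervals from edgeR's model and filled red points where the adjusted p was under 0.05. *Irs2*, *Foxo1* and *Grb14* are filled for surgery on HFD, and *Grb14* for HFD in sham mice, on the opposite side of 0.

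Ordered by mean CPM, 8 of the 10 genes were lowest in Sham HFD, the exceptions being *Irs1* and *Pik3r1*, which were lowest in Sham Chow, and 5 of 10 were highest in RYGB HFD. Between groups that neighbour each other in these orders, the 1 step called was that of *Grb14* from Sham HFD to RYGB Chow. With CPM scaled by library size alone in place of TMM, 4 of 10 were lowest in Sham HFD, so this ordering depends on the scaling. Within groups, RYGB Chow replicate 5 had the lowest level of its group for 6 of the 10 genes, and RYGB Chow replicate 3 the highest for 5.

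**Figure D3:**
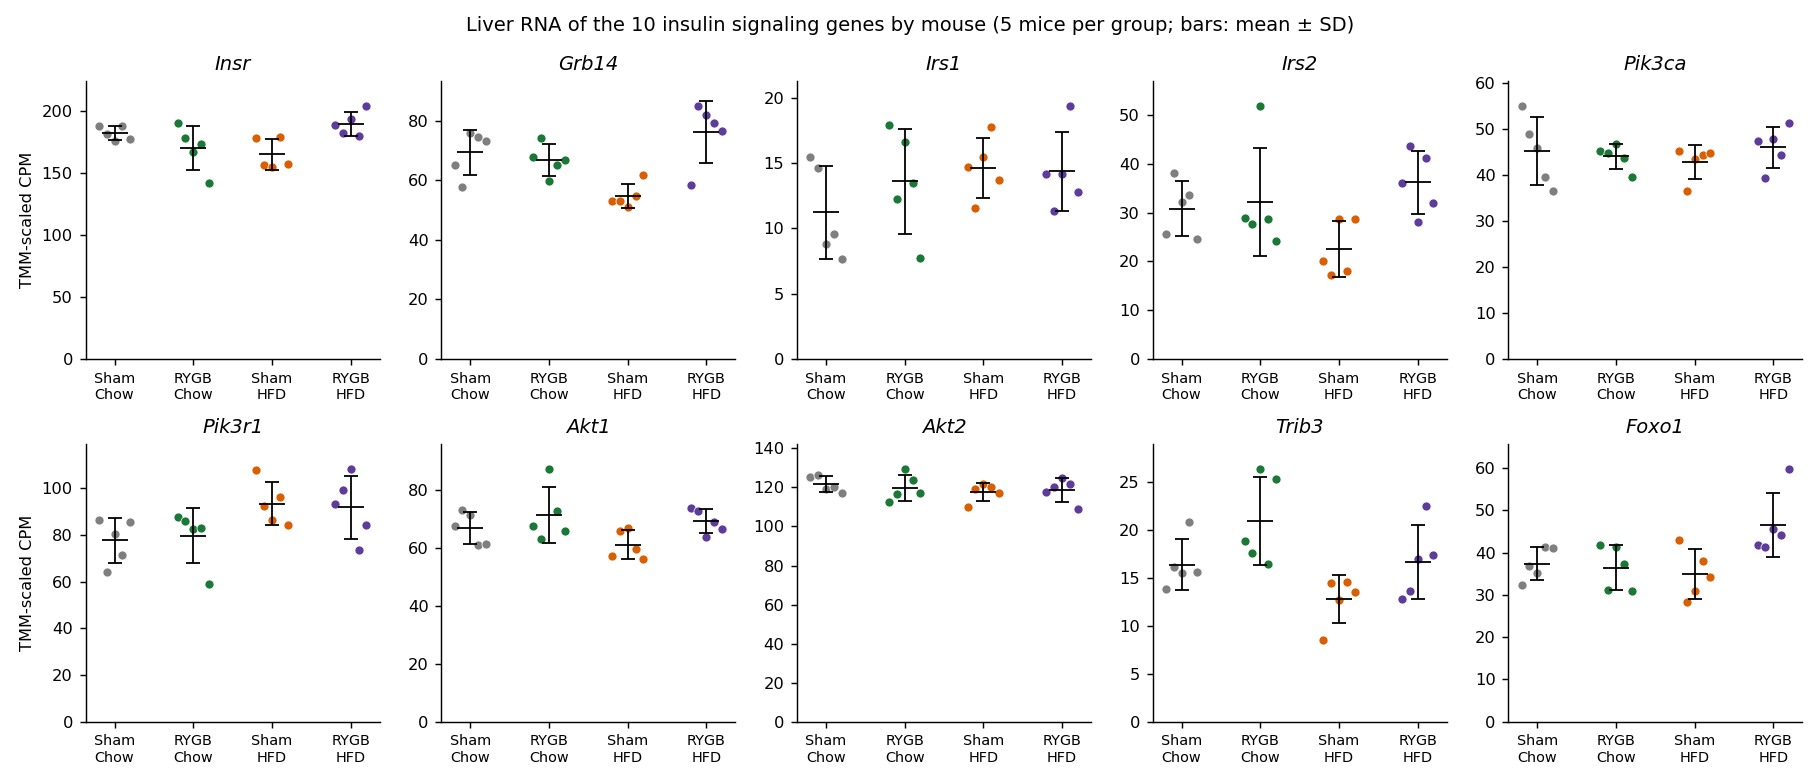
TMM-scaled CPM (y axis, from 0) of each of the 10 genes in the 4 groups, 1 point per mouse, with bars for the mean ± SD of 5 mice. *Grb14*, *Irs2* and *Foxo1* have higher means in RYGB HFD than in the other HFD group with overlapping ranges, and *Akt2* lies between 109 and 129 CPM in all 20 mice.

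*Insr* (ENSMUSG00000005534, chromosome 8 from 3122061 to 3279617, minus strand), the gene of the receptor itself, was not called in edgeR's test of any comparison. The Sham HFD mice, replicates 1 to 5, had 178, 156, 155, 179 and 158 CPM and the RYGB HFD mice 189, 183, 194, 180 and 204. The lowest RYGB HFD mouse thus lay just above the highest Sham HFD mouse, the only separation of groups among the 10 genes in any of the 4 comparisons (two-sided exact permutation test p = 0.00794, the smallest that 5 mice against 5 allow). Groups did not overlap for 14.7% of all tested genes in that comparison, for 1.33% with surgery on chow, 16.5% with HFD in sham mice and 5.05% with HFD after RYGB. Adjusted over 40 pairs of gene and comparison, the exact p was 0.136. The log2 fold change was 0.20 (SE 0.07, 95% interval 0.05 to 0.35, adjusted p = 0.0661), a fold of 1.15. DESeq2 called it (adjusted p = 0.0485). Sham Chow mice lay between 176 and 188 CPM and RYGB Chow mice between 142 and 191, with the lowest value in RYGB Chow replicate 5. Without that mouse in the model, the HFD difference of *Insr* was called (0.20, adjusted p = 0.0311 in edgeR's test).

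*Grb14* (ENSMUSG00000026888, chromosome 2 from 64912476 to 65024987, minus strand), the adaptor that inhibits the active receptor, had the smallest adjusted p of the 10 genes in this comparison and in HFD in sham mice. The Sham HFD mice had 53.2, 53.2, 51.1, 54.7 and 61.6 CPM and the RYGB HFD mice 58.6, 84.9, 82.0, 79.2 and 76.7. Apart from RYGB HFD replicate 1, every mouse operated on and kept on HFD lay above every Sham HFD mouse. The log2 fold change was 0.48 (SE 0.10, adjusted p = 0.0017 in edgeR's test), a fold of 1.39. The Sham Chow mice had 65.3, 57.8, 76.0, 74.6 and 73.1 CPM, and the RYGB Chow mice 67.8, 74.3, 59.7, 65.0 and 67.0, with an interval of the difference from -0.25 to 0.14. The means of both chow groups, 69.4 and 66.8 CPM, thus lay between those of Sham HFD (54.8) and RYGB HFD (76.3). In sham mice *Grb14* was lower on HFD, with a log2 fold change of -0.34 (SE 0.10, adjusted p = 0.0152 in edgeR's test), a fold of 0.790, and the change with diet after RYGB was 0.19 (SE 0.10, adjusted p = 0.286). Against RYGB Chow, a comparison in which surgery and diet both differ and 22.1% of all genes were called, Sham HFD was lower by -0.29 (adjusted p = 0.0368 in edgeR's test). The HFD surgery call held under all 8 other settings and in all 20 fits without 1 mouse. Of the 5 hepatocyte markers, 3 were higher and 1 lower with surgery on HFD and 2 were lower with HFD in sham mice, the same direction as *Grb14* for most of those called, and their part in its changes was not tested.

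Of 19 tested genes listed here as negative regulators of insulin signaling, 4 rose with surgery on HFD and 0 fell, where 16.4% of all genes were called and 8.54% were higher, with a median log2 fold change of 0.14 against 0.01 over all genes. They were *Socs2* (1.504), *Socs3* (0.74), *Grb7* (0.34) and *Ceacam1* (0.30). SOCS2 and SOCS3 are cytokine-induced inhibitors of receptor signaling, and GRB7 is the paralog of GRB14. CEACAM1 differs from these in that it promotes insulin clearance by the liver, so it is not a plain inhibitor of the pathway. With HFD in sham mice, 2 of the 19 were lower, *Socs2* (-1.92) and *Ceacam1* (-0.26), and 2 were higher, the receptor phosphatase *Ptprf* (0.37) and the diacylglycerol-responsive kinase *Prkce* (0.37). The count of 4 fell to 1 without Sham HFD replicate 3 or RYGB HFD replicate 2 and to 2 without any 1 of Sham HFD replicates 2 or 5 or RYGB HFD replicates 1, 3, 4 or 5, and limma-voom called 3. With scaling by library size only, *Grb7*, *Ceacam1* and *Socs3* lost their calls for surgery on HFD. That of *Ceacam1* was also lost with testing without a filter, and that of *Socs3* with the replicate number as a block. The 4 calls with diet, set against 21.6% of all genes, ran from 1 to 4 with 1 mouse left out. That of *Prkce* was lost in 15 of 20 such fits. *Ceacam1* lost its diet call in 8 of the 20 fits and in 4 of 8 other settings. *Socs2* kept its diet call in all 20. *Grb10*, the other paralog of *Grb14*, had a log2 fold change of 0.23 (adjusted p = 0.637) with surgery on HFD.

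*Irs2* (ENSMUSG00000038894, chromosome 8 from 10984681 to 11008458, minus strand) had the largest fitted change of the 10 genes in the 4 comparisons. The Sham HFD mice had 20.002, 17.2, 28.7, 18.0 and 28.6 CPM and the RYGB HFD mice 36.0, 43.7, 28.1, 41.3 and 32.0. The groups overlapped through RYGB HFD replicate 3, which lay below the 2 highest Sham HFD mice. The log2 fold change was 0.68 (SE 0.20, 95% interval 0.27 to 1.09, adjusted p = 0.0206 in edgeR's test), a fold of 1.61. The Sham Chow mice had 25.6, 38.0, 32.1, 33.6 and 24.7 CPM, and the RYGB Chow mice 29.0, 27.6, 51.8, 28.7 and 24.2. RYGB Chow replicate 3 thus stood far above the other mice of its group. HFD in sham mice gave -0.45 (SE 0.20, adjusted p = 0.107) and, without RYGB Chow replicate 3 in the model, -0.44 (adjusted p = 0.0497 in edgeR's test). The call for surgery on HFD was lost without any 1 of Sham HFD replicates 1, 2 or 4 or RYGB HFD replicates 2 or 4, with adjusted p between 0.0519 and 0.0630, and with scaling by library size only (0.60, adjusted p = 0.0736).

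*Irs1* (ENSMUSG00000055980, chromosome 1 from 82233101 to 82291416, minus strand), the paralog, was not called in any of the 4 comparisons. It ranged from 11.6 to 17.7 CPM in Sham HFD, from 11.3 to 19.3 in RYGB HFD, from 7.64 to 15.5 in Sham Chow and from 7.75 to 17.9 in RYGB Chow. The 4 ranges overlapped throughout. With surgery on HFD its log2 fold change was -0.03 with an interval from -0.47 to 0.42. HFD in sham mice gave 0.38 (SE 0.21, adjusted p = 0.214).

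The balance of the adaptors was compared within each mouse as the ratio of *Irs2* to *Irs1* per kilobase, which does not depend on the scaling of the library. Its geometric mean was 2.19 in Sham HFD against 3.66 in RYGB HFD, 4.07 in Sham Chow and 3.44 in RYGB Chow (n = 5 mice each). Single Sham HFD mice had ratios of 1.96, 2.15, 2.69, 1.47 and 3.03, and RYGB HFD mice 3.68, 5.57, 2.87, 3.09 and 3.63. The 2 groups overlapped through 1 Sham HFD mouse. The log2 difference was 0.74 for surgery on HFD (two-sided exact permutation p = 0.0159) and -0.89 for HFD in sham mice (exact p = 0.0238), and both came to 0.143 after adjustment over 12 pairs of ratio and comparison. Neither passed the threshold. Surgery on chow gave -0.24 and HFD after RYGB 0.09, with exact p of 0.389 and 0.722.

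**Figure D4:**
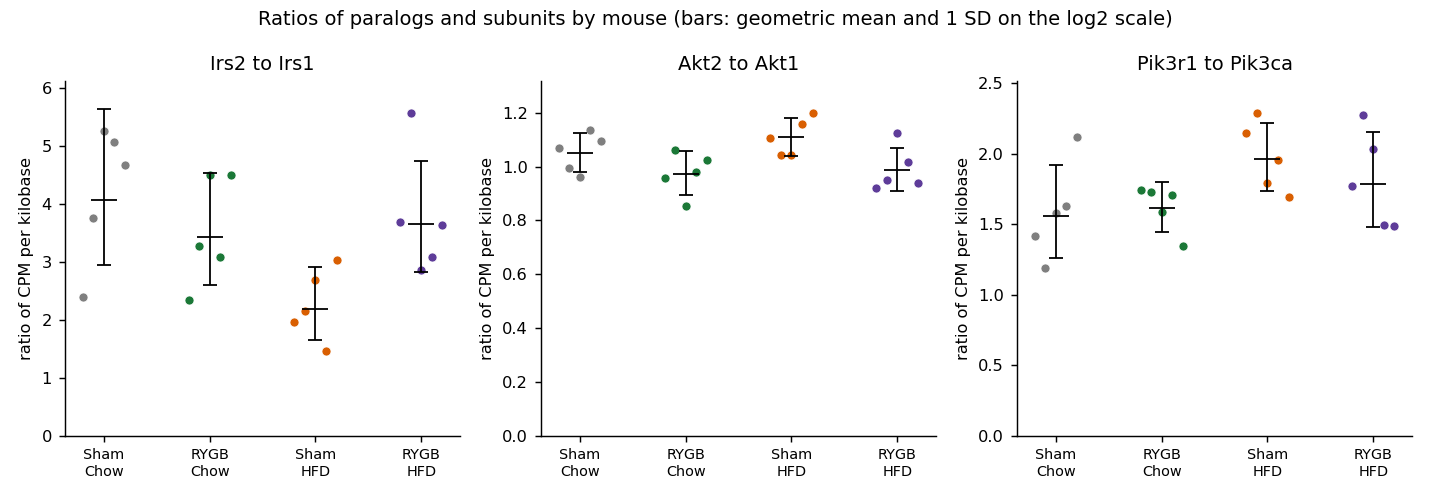
Ratios of CPM per kilobase (y axis, from 0) of *Irs2* to *Irs1*, *Akt2* to *Akt1* and *Pik3r1* to *Pik3ca* in the 4 groups, 1 point per mouse, with bars for the geometric mean and 1 SD on the log2 scale. The *Irs2* to *Irs1* ratio has its lowest geometric mean, 2.19, in Sham HFD.

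The subunits of phosphoinositide 3-kinase gave no call. *Pik3ca* (ENSMUSG00000027665, chromosome 3 from 32397671 to 32468486), the catalytic subunit, ranged from 36.5 to 55.0 CPM over Sham Chow, from 39.5 to 46.9 over RYGB Chow, from 36.5 to 45.3 over Sham HFD and from 39.4 to 51.3 over RYGB HFD. Its largest difference in the 4 comparisons was 0.10 (interval -0.10 to 0.31), for surgery on HFD. *Pik3r1* (ENSMUSG00000041417, chromosome 13 from 101680563 to 101768217), the regulatory subunit, averaged 93.5 ± 9.26 CPM (mean ± SD over 5 mice per group) with HFD and 77.7 ± 9.51 with chow in sham mice, against 91.8 ± 13.4 with HFD and 79.6 ± 11.8 with chow after RYGB. Both HFD groups had the higher means, with log2 fold changes of 0.27 in sham mice (SE 0.12, adjusted p = 0.104) and 0.21 after RYGB (SE 0.12, adjusted p = 0.361). With scaling by library size only, the value in sham mice was 0.40 and was called (adjusted p = 0.0263 in edgeR's test). The ratio of *Pik3r1* to *Pik3ca* was 1.56 and 1.96 in the sham groups on chow and HFD and 1.61 and 1.79 in the RYGB groups, and no comparison of it reached an exact p under 0.05. Of 9 other tested phosphoinositide 3-kinase subunits and lipid phosphatases, 0 were called for surgery on HFD with edgeR, DESeq2 or limma-voom. An unadjusted p under 0.05 in edgeR's test was found for 0 of the 9 and for 3772 of 12289 tested genes. With edgeR 16.4% of all genes were called there. Of the 9, 2 were higher in Sham HFD than in Sham Chow. These were *Inpp5d* (1.01), a lipid phosphatase known from blood cells, and the regulatory subunit *Pik3r3* (0.93), where 10.9% of all genes were higher. *Inpp5d* was called in all 20 fits without 1 mouse, and *Pik3r3* lost its call in 7 of them. Beside them, 3 of 5 Kupffer cell markers were higher in Sham HFD (summed level 211 to 287 CPM, against 89.3 to 234 in Sham Chow), as were 5 of 5 stellate cell markers (246 to 304 against 123 to 198). The part of these cells in the list values was not tested.

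*Akt2* (ENSMUSG00000004056, chromosome 7 from 27591552 to 27640826) was the steadiest of the 10 genes. Its means were 122 and 118 CPM in the sham groups on chow and HFD and 119.9 and 119 in the RYGB groups, and single groups varied by between 3.31% and 5.62% (SD over mean). In all 4 comparisons its interval lay within -0.17 and 0.13 on the log2 scale. *Akt1* (ENSMUSG00000001729, chromosome 12 from 112653821 to 112674884) averaged 66.8, 61.1, 71.2 and 69.1 CPM in the same order. Its value for surgery on HFD was 0.18 (SE 0.09, adjusted p = 0.161), with Sham HFD mice between 56.1 and 66.9 CPM and RYGB HFD mice between 63.8 and 73.7. The ratio of *Akt2* to *Akt1* was 1.11 in Sham HFD and 0.987 in RYGB HFD (exact permutation p = 0.0397, adjusted over 12 pairs 0.159).

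*Trib3* (ENSMUSG00000032715, chromosome 2 from 152337422 to 152344032, minus strand), the pseudokinase below ATF4, varied between the mice of a group by 16.2% to 23.1% (SD over mean). Single Sham HFD mice had 8.46, 14.4, 12.7, 14.6 and 13.5 CPM, and RYGB Chow mice 18.8, 17.6, 26.3, 16.4 and 25.2. These groups, picked here because their means were the lowest and the highest, differed by -0.71, Sham HFD over RYGB Chow (SE 0.17, adjusted p = 0.00585 in edgeR's test). They differ in both surgery and diet. Between them 22.1% of all genes were called, and the groups did not overlap for 15.6% of all genes, *Trib3* included. Single steps of surgery or diet were not called, at 0.35 and 0.38 for surgery on chow and on HFD and at -0.36 and -0.33 for HFD in sham mice and after RYGB. The paper counts *Trib3* among genes raised by surgery on both diets, at an unadjusted p under 0.05 with DESeq2. In edgeR's test the unadjusted p for surgery was 0.0524 on chow and 0.0393 on HFD. The interaction was 0.03 with an interval from -0.48 to 0.54.

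With surgery on HFD and with HFD in sham mice, called genes of the ATF4 list had the opposite sign to the uncalled values of *Trib3*, apart from *Atf4* itself. Of 12 tested genes of ATF4 and its targets, 3 fell with surgery on HFD and 0 rose, where 7.90% of all genes were lower: the lipoprotein receptor *Vldlr* (-1.77), the stress factor *Atf3* (-1.51) and the mTORC1 inhibitor *Sesn2* (-0.80). With HFD in sham mice these 3 were higher, by 1.30, 1.80 and 0.90, together with *Nupr1* (1.85), whereas *Atf4* itself was lower (-0.36, adjusted p = 0.0302 in edgeR's test). With HFD in sham mice 10.9% of all genes were higher and 10.7% lower. *Vldlr*, *Atf3* and *Sesn2* kept both calls in all 20 fits without 1 mouse, whereas *Nupr1* lost its call in 8 and *Atf4* in 5. The count for surgery on HFD rose to 5 without RYGB Chow replicate 3, and that for HFD in sham mice fell from 5 to 3 without Sham HFD replicate 3. *Asns*, the asparagine synthetase gene, was not called, with 1.98 for surgery on HFD (adjusted p = 0.189) and -2.56 for HFD in sham mice (adjusted p = 0.0667).

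*Foxo1* (ENSMUSG00000044167, chromosome 3 from 52268336 to 52353221) encodes the factor that AKT keeps out of the nucleus. The Sham HFD mice had 43.1, 28.3, 30.9, 38.1 and 34.2 CPM and the RYGB HFD mice 41.8, 41.4, 45.5, 44.2 and 59.7. Only Sham HFD replicate 1 reached the range of RYGB HFD, and RYGB HFD replicate 5 stood well above its group. The log2 fold change was 0.42 (SE 0.12, 95% interval 0.16 to 0.67, adjusted p = 0.0254 in edgeR's test), a fold of 1.33. It was 0.31 without RYGB HFD replicate 5 (adjusted p = 0.0879 in edgeR's test), and the call was also lost without any 1 of Sham HFD replicates 2, 3 or 5 (adjusted p between 0.0536 and 0.0765) and with scaling by library size only (0.32, adjusted p = 0.110). Sham Chow mice lay between 32.2 and 41.3 CPM and RYGB Chow mice between 30.9 and 41.7. Both ranges overlapped that of Sham HFD, and HFD in sham mice gave -0.10 (interval -0.35 to 0.16).

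*Irs2*, described above as repressed by insulin through the loss of FOXO1, was called higher in RYGB HFD (0.68) and is not in the list given next. That list, of other genes that FOXO1 is known to raise and insulin to lower, held no gene called higher with *Foxo1* RNA in RYGB HFD. Of 9 tested, 4 fell with surgery on HFD and 0 rose, where 16.4% of all genes were called and 7.90% were lower: *Pdk4* (-1.89), which restrains pyruvate oxidation, *Apoc3* (-0.64), an inhibitor of triglyceride clearance, the gluconeogenic enzyme *Fbp1* (-0.58) and *Sesn3* (-0.50). The calls of *Pdk4*, *Apoc3* and *Fbp1* held in all 20 fits without 1 mouse, and that of *Sesn3* was lost in 5. The median of the list was -0.30 against 0.01 over all genes. The classical gluconeogenic genes differed among themselves, with -0.30 for *G6pc* (adjusted p = 0.448) and 0.48 for *Pck1* (adjusted p = 0.301). With HFD in sham mice, *Pdk4* (1.52), *Sesn3* (0.59) and *Fbp1* (0.32) were higher and *Pck1* (-1.11) was lower, where 21.6% of all genes were called. *Pdk4* lost this call without any 1 of Sham Chow replicates 3 or 5 or Sham HFD replicate 4. After RYGB, *G6pc* was lower on HFD than on chow (-1.05, adjusted p = 0.0256 in edgeR's test), where 3.65% of all genes were called. This call was lost without any 1 of RYGB Chow replicates 1 or 4 or RYGB HFD replicates 2 or 3, and with a fit of only the 2 groups.

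Of 10 tested genes that insulin raises, 2 fell with surgery on HFD and 0 rose, where 7.90% of all genes were lower, the malic enzyme *Me1* (-2.05) and the desaturase *Scd1* (-1.90). Both were also lower on HFD than on chow after RYGB (-1.64 and -1.48), where the lipogenic factor *Srebf1* was higher (0.80) and 3.65% of all genes were called. After RYGB the call of *Me1* held in all 20 fits without 1 mouse, that of *Scd1* was lost in 4 and that of *Srebf1* in 7, and without RYGB HFD replicate 2 both were lost. Both were also lost with a fit of only the 2 groups, and that of *Srebf1* with limma-voom and with the replicate block too. *Srebf1* was the 1 gene of this list called for HFD in sham mice (0.93, with 21.6% of all genes called). With surgery on chow, 0 genes of any of the 7 lists were called with edgeR, 11 of 98 had an unadjusted p under 0.05 and DESeq2 called 1. Of all 12289 tested genes, 1325 had an unadjusted p under 0.05 in edgeR's test, and DESeq2 called 66 higher and 26 lower.

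**Figure D5:**
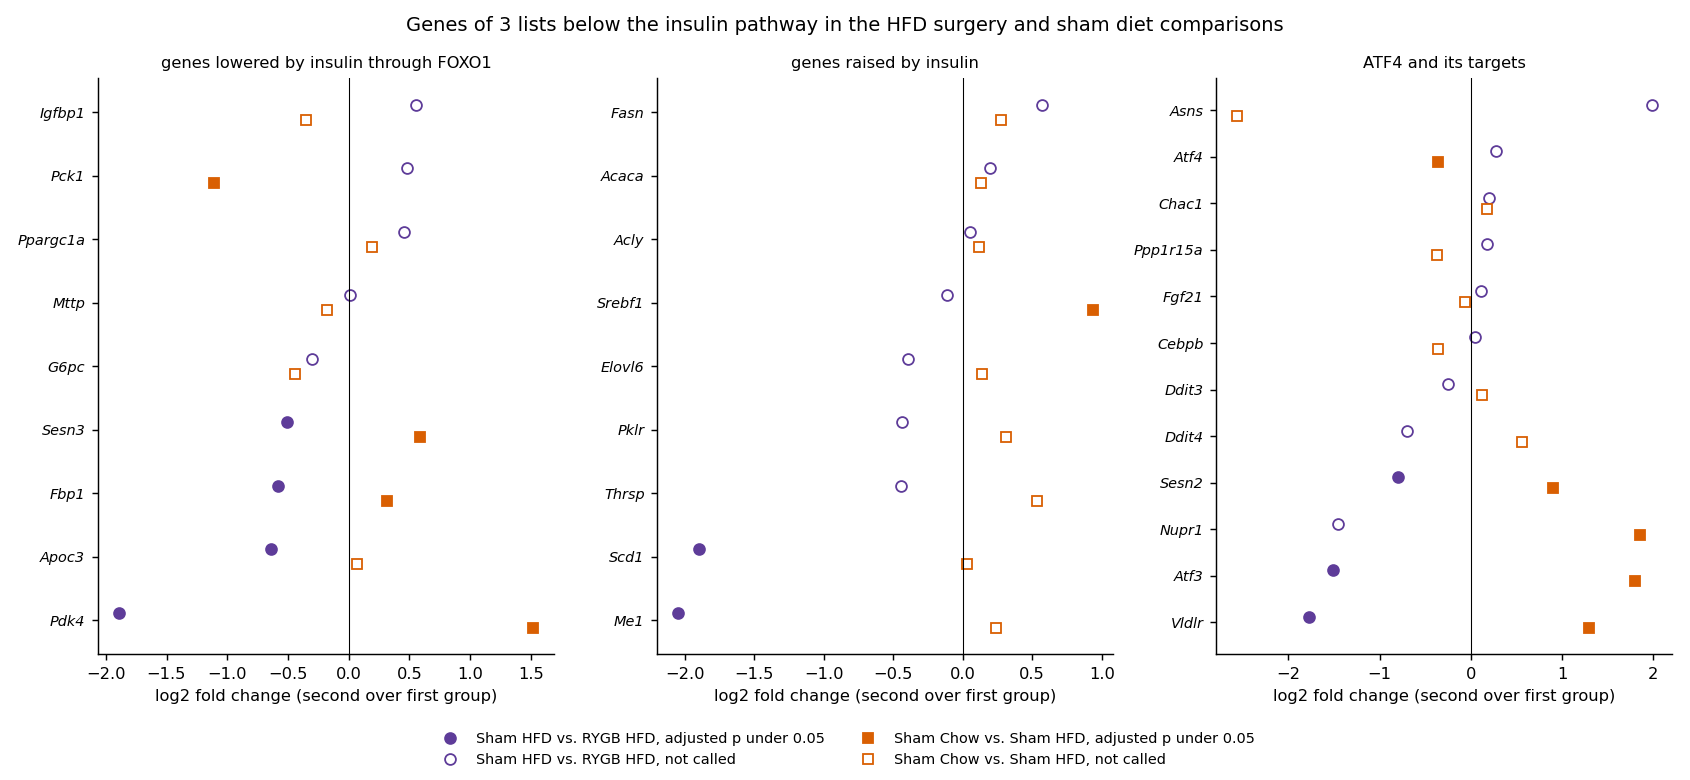
Log2 fold changes (x axis) of genes lowered by insulin through FOXO1, 9 of the 10 tested genes raised by insulin, and ATF4 and its targets, with circles for surgery on HFD and squares for HFD in sham mice, filled where the adjusted p was under 0.05. *Pdk4*, *Vldlr*, *Atf3* and *Sesn2* lie on opposite sides of 0 in the 2 comparisons, which share the Sham HFD mice.

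Of 13 tested receptors and adaptors, 2 rose with surgery on HFD, where 16.4% of all genes were called and 8.54% were higher, the insulin receptor adaptor *Sh2b2* (0.82) and the exchange factor *Sos2* (0.33). The call of *Sh2b2* was lost without Sham HFD replicate 1, that of *Sos2* without any 1 of 8 other HFD mice, and both with scaling by library size only. That of *Sos2* was also lost with testing without a filter and with a fit of only the 2 groups. *Sh2b2* was lower in Sham HFD than in Sham Chow (-0.71), while the adaptor *Gab2* (0.79) was higher, where 21.6% of all genes were called. In other settings, *Sh2b2* lost its diet call in 4 of 8 and *Gab2* in 1 of 7. These diet calls were lost in 7 and 6 of the 20 fits without 1 mouse, and the list's count of 3 fell to 0 without any 1 of Sham Chow replicates 3 or 5 or Sham HFD replicates 1 or 4. Of 26 tested kinases and targets beside and below AKT, 1 was lower in RYGB HFD, *Tbc1d4* (-0.67), the AKT substrate that controls glucose transporter traffic, where 7.90% of all genes were lower. This call was lost without any 1 of 8 of the 10 HFD mice, all but Sham HFD replicate 2 and RYGB HFD replicate 3. With HFD in sham mice, *Mtor* (0.40) and its partner *Mlst8* (0.50) were higher, where 10.9% of all genes were higher. *Mlst8* lost its call without Sham HFD replicate 2 and with testing without a filter. After RYGB, the glycogen synthase kinase *Gsk3a* was lower on HFD than on chow (-0.25), where 3.65% of all genes were called. The call of *Gsk3a* was lost in 7 of the 20 fits without 1 mouse and in 4 of 8 other settings. These comparisons share groups, so the Sham HFD mice enter both the surgery and the diet values.

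The genes whose levels over the 20 mice were most like those of the 3 called members are given as a description, with Pearson's r of log2 CPM and, after it, r of the deviations from the group means. They were picked as the highest of 12289 tested genes, and all points share their libraries. For *Grb14* they were *Tfr2*, the transferrin receptor of hepatocytes (0.86 and 0.61), *Zcchc8* (0.86 and 0.60) and *Asgr2*, a subunit of the asialoglycoprotein receptor (0.85 and 0.65). For *Irs2* they were the glucosidase *Mogs* (0.81 and 0.67), the receptor *Erbb3* (0.80 and 0.67) and the golgin *Golga1* (0.77 and 0.62). For *Foxo1* they were *Phactr4* (0.84 and 0.74), *Cep85l* (0.78 and 0.63) and the hedgehog-interacting protein *Hhip* (0.77 and 0.69). None of these 9 genes was shared between the 3 members.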

How the data were processed

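Liver poly(A) RNA of 20 mice was sequenced by the authors as dUTP-stranded paired 150 base reads. Per the labels' processing notes, reads were handled with Trimmomatic 0.36, HISAT2 2.1.0 on mm10 and featureCounts 1.5.0-p3, and the authors deposited raw counts per Ensembl gene for each mouse. The annotation release, strand setting and treatment of multi-mapping reads are not given in the sources used here. Groups follow the sample titles, and the labels name no batch. No pair of columns was identical (0 found). Reads carry no molecular identifiers.

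Symbols, positions (GRCm38) and merged exon lengths came from GENCODE M21, with a symbol for 54409 genes. Genes reaching 2 CPM in 3 or more mice entered edgeR 4.0.16 (R 4.3.3), a two-sided quasi-likelihood test with TMM factors (0.916 to 1.13) and a mean per group; the common biological coefficient of variation was 0.181. Single genes and ratios were compared on log2 (CPM + 0.5 for genes) by exact permutation over 252 splits, computed with Python 3.11.15. Alternatives were DESeq2 1.42.0, limma-voom (limma 3.58.1), scaling by RLE factors or by library size only, testing without a filter or from 5 CPM, fits of only the 2 groups compared, the replicate number as a block, a pseudocount of 1, and each mouse left out. The order of groups under library-size CPM was added after seeing the data. The procedure was tested on simulated data.

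The 10 genes, the 7 lists and the markers were chosen with earlier results of these data known. All 10 genes are named. In each list, at most 4 called genes with the smallest p per comparison are named, and *Nupr1*, *Asns*, *G6pc*, *Pck1* and *Grb10* were also named after their values were seen. Some list genes are counted but not reported here by name. The 3 genes with the highest r are given for each called member. Same-numbered mice did not deviate together (median r -0.01 over 30 pairs, 5 above 0.1), so the replicate numbers were not taken as pairs. P-values set a difference against the spread between mice. In edgeR's test that spread was estimated from all groups together and moderated over the tested genes.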

Additional observations from a re-analysis of the deposited data

Results flagged for a closer look

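Each gene and each ratio was tested for outliers in each group, so the 52 sets of 5 values share mice and genes and are not independent. In 4 of the 52 sets, 1 mouse stood apart from the others by Dixon's 95% limit, where chance gives about 1 in 20 independent sets. They were RYGB Chow replicate 3 for *Irs2* (51.8 CPM, the other mice of the group between 24.2 and 29.0), Sham HFD replicate 2 for *Pik3ca* (36.5), RYGB Chow replicate 5 for *Pik3r1* (58.9) and RYGB HFD replicate 5 for *Foxo1* (59.7). RYGB Chow replicate 3 also had the highest *Akt1* and *Trib3* of its group (87.2 and 26.3 CPM).

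The effect of surgery differed between the diets, by the interaction test in edgeR's model, for *Grb14* among the 10 genes (0.53, adjusted p = 0.0263). Among the named genes of the lists it also differed for *Fbp1* (-0.45), *Pdk4* (-2.23), *Me1* (-1.88), *Vldlr* (-1.91) and *Sesn2* (-1.18), all 5 with a surgery effect lower on HFD than on chow, opposite to *Grb14*. The lists held 98 tested genes, and 5.06% of all tested genes were called in the interaction. The interaction of *Pdk4* lost its call in 16 of the 20 fits without 1 mouse, and those of the other 4 kept it in all 20.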

How the results depend on the processing

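The call of *Grb14* for surgery on HFD held under all 8 other settings and all 20 fits without 1 mouse, and its call for HFD in sham mice was lost only with library size only (-0.21, adjusted p = 0.0935 in edgeR's test). That setting left 1 of the 10 genes called for surgery on HFD in place of 3, and 0 in the interaction in place of 1. It moved the median log2 fold change of all genes to 0.12 for HFD in sham mice and -0.13 in the interaction, and the share of higher among all called genes from 52.0% to 26.6% for surgery on HFD, from 50.3% to 80.4% for HFD in sham mice and from 49.0% to 20.2% in the interaction. With CPM by library size, an alternative chosen after seeing the data, 4 genes were lowest in Sham HFD in place of 8 (6 to 8 with 1 mouse left out). Of the uncalled log2 fold changes, 43 values of 19 results changed sign under an alternative, 11 of them with library size only, and lay between -0.17 and 0.08. No called value changed sign.

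With each mouse left out, the genes called among the 10 ran from 1 (without Sham HFD replicate 2) to 4 (without RYGB Chow replicate 5) for surgery on HFD, from 1 to 2 (without RYGB Chow replicate 3) for HFD in sham mice and from 0 to 2 in the interaction, and stayed at 0 in the other 2 comparisons. The replicate block gave 3, 1, 0, 0 and 1 called genes among the 10 for surgery on HFD, HFD in sham mice, surgery on chow, HFD after RYGB and the interaction, the same counts as without it, and 3 list genes for HFD after RYGB in place of 5.

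For the 7 lists together, the other settings gave 1 call with DESeq2 and 1 with library size only in place of 0 for surgery on chow, 1 with only the 2 groups in place of 5 for HFD after RYGB, and 9 with DESeq2 in place of 5 in the interaction. With 1 mouse left out, these counts ran from 0 to 1 for surgery on chow, 10 to 18 (main 16) for surgery on HFD, 12 to 24 (main 21) for HFD in sham mice, 2 to 5 for HFD after RYGB and 4 to 8 in the interaction. The lists held 98 tested genes. Of all tested genes, 0.0570%, 16.4%, 21.6%, 3.65% and 5.06% were called in these comparisons, in the same order. The cause of these changes was not tested. The exact permutation test called 0 of the 40 pairs of gene and comparison after adjustment, also with a pseudocount of 1 and with CPM by library size, and 11 had an unadjusted exact p under 0.05. *Irs1*, with as few as 126 reads in a mouse, has the widest intervals.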
